A study of Homo sapiens with 18 samples.

Results

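Transcripts of 9 genes that make, inactivate or sense prostaglandin E2 (PGE2) were followed in OVCAR3 cells. OVCAR3 is an established line grown from a human ovarian carcinoma, labelled high-grade serous. The genes were taken by symbol, out of 55765 distinct symbols present in both count tables. They were PLA2G4A, PTGS1, PTGS2, PTGES, PTGES2, PTGES3, HPGD, PTGER2 and PTGER4, and all 9 passed the filter on low counts in both tables. The cells grew in RPMI medium with 2% serum and were sequenced in 18 libraries, 3 in each of 6 groups. In a first series of 9 libraries, cells received human IgA of no particular specificity (IgA), human IgG of no particular specificity (IgG), or no antibody (untreated). A second series of 9 compared IgA directed at BDNF (BDNF IgA) and IgA directed at TSPAN7 (TSPAN7 IgA) with its own untreated cells. Each antibody was given at 0.5 μg/ml for 24 h, although another description of the same experiments states a shorter incubation. OVCAR3 is 1 cell line, the 2 antigen-directed IgA came from immortalized B cells, and groups were compared only within a series. The labels do not say that replicates were separate cultures. The study describes the first series as 3 experiments and gives only n = 3 for the antigen-directed IgA. The p-values measure the spread between these libraries, which may be technical.

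Prostaglandins are short-lived lipid mediators made from arachidonic acid. A cytosolic phospholipase frees arachidonic acid from membranes, a cyclooxygenase turns it into prostaglandin H2, and a terminal synthase converts that into PGE2. PGE2 then leaves the cell and binds receptors on it or on its neighbours, and a dehydrogenase inactivates it. PTGS1 is the cyclooxygenase that many tissues carry at rest, whereas PTGS2 is known for fast induction by cytokines and growth factors. In epithelial tumours the inducible enzyme and the receptors that raise cyclic AMP are studied for their effects on tumour growth and on immune cells.

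The 9 libraries of the first series totalled 27920733 to 42371474 counts each, and those of the second 39254350 to 47381836. IgA replicate 3 stood apart: mitochondrial genes supplied 19.1% of its counts, against 5.75% to 8.32% in the other 8 libraries of the first series. Values without it are given for PTGS2, PTGES3, PTGER2 and some list counts. Other results with IgA include it unless stated. The first series had a common dispersion of 0.0307 and the second one of 0.00303, a lower precision for the first at equal counts. The 10 epithelial and serous carcinoma markers, PAX8, WT1, MUC16 and EPCAM among them, were all found in every group, none of them under 10 counts throughout a group. For IgA against IgG 2 of the 10 were called higher by edgeR, PAX8 (log2 difference 0.34, adjusted p = 0.0441) and KRT7 (0.43, adjusted p = 0.00539), and 3 lower, WT1 (-1.17, adjusted p = 0.00348), KRT8 (-0.37, adjusted p = 0.0304) and CCNE1 (-0.67, adjusted p = 0.0257). The same 5 were called in the same directions against untreated cells. Of all genes tested, 24.2% were called for IgA against IgG and 25% for IgA against untreated cells. In the second series 4 were higher and 0 lower with BDNF IgA, beside 7.67% of all genes called. With TSPAN7 IgA 1 was higher and 2 lower, beside 8.54%, and between the antibodies 1 was higher and 4 lower, beside 7.92%. Of 8 markers of other cell types, 7 were analysed, of which 2 (first series) or 1 (second) stayed under 10 counts throughout a group. In CPM, counts scaled to the library total, they summed to 48 to 81.1 with IgA, 45.7 to 51.1 with IgG and 48.6 to 51.4 without antibody. The sums were 59.2 to 73.1 with BDNF IgA, 56.3 to 64.3 with TSPAN7 IgA and 56.1 to 61.3 in their untreated cells. These sums mostly follow COL1A2. In untreated cells of the first series it had 1561 to 1976 raw counts per library, against 26 to 52 for VWF, the next highest. Of the 7 genes COL1A2 was called higher for IgA against IgG, at 2409 ± 1003 against 1517 ± 86.4 normalised counts (SD, n = 3; log2 difference 0.66, adjusted p = 0.0351). PTPRC was called higher for TSPAN7 IgA against untreated cells, at 19.7 ± 7.77 against 7.40 ± 1.5 (1.39, adjusted p = 0.0487). For IgA against untreated cells COL1A2 was not called and its libraries overlapped (log2 difference 0.59, adjusted p = 0.0535). The highest IgA library for COL1A2 was replicate 3, at 3534 normalised counts. The part of all these markers in the results was not tested. In bulk samples of this kind, fewer cells expressing a gene and less RNA per cell cannot be told apart.

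The 250 bases before the annotated start of PTGS1, PTGS2, PTGES3 and PTGER2 are shown, because these were the 4 genes whose counts differed in at least 1 comparison. They are RefSeq sequence of build GRCh38.p14, written 5′ to 3′, and for PTGS1 the first of 2 annotated starts is used. Capitals mark matches, on either strand, to 1 of these motifs: the cyclic AMP response element core TGACG, the full element TGACGTCA (which holds that core), AP-1 TGANTCA, the kappa-B core, the TATA box TATAAA, the E-box CACGTG and the C/EBP core TTNNGCAA.
PTGS1 (plus strand, chr9:122370283-122370532): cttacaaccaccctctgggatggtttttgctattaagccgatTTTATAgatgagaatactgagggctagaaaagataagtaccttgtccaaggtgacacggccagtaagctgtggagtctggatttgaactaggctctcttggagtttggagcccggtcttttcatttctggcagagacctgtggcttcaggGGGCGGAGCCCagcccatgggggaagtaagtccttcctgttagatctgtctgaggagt
PTGS2 (minus strand, chr1:186680424-186680673): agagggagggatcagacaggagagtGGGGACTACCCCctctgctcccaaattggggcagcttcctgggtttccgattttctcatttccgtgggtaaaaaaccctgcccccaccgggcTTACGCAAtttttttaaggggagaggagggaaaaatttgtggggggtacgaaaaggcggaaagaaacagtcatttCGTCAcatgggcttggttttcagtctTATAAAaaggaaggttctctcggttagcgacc
PTGES3 (minus strand, chr12:56688285-56688534): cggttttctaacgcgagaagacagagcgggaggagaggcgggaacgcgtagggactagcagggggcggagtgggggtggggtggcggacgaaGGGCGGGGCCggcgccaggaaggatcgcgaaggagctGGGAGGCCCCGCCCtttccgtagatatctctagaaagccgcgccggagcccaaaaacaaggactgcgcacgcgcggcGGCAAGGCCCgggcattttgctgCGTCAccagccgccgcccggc
PTGER2 (plus strand, chr14:52314062-52314311): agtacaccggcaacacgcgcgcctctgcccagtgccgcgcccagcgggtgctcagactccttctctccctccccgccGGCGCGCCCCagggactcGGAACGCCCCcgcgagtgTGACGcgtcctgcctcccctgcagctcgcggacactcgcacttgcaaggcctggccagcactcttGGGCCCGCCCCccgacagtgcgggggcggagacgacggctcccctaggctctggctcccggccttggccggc
The PTGS2 window held the kappa-B core in 3 overlapping frames from position -225, the C/EBP core at position -133, the cyclic AMP response element core at position -58 and the TATA box at position -32, counted back from the start. In PTGES3 and PTGER2 the matches were to the kappa-B core and, at positions -21 and -137, to the cyclic AMP response element core. The PTGS1 window held TATA letters only on the opposite strand, at position -208, and overlapping kappa-B cores from position -58. The 9 genes had 13 windows in all, and a gene was counted if any of its windows held the motif. On that count 8 genes held the kappa-B core, 4 the cyclic AMP response element core, 2 the TATA box, 1 the C/EBP core and 1 the E-box. None held AP-1 or the full response element. Among all 35116 promoter windows the kappa-B core occurred in 54.4%, the cyclic AMP response element core in 21.2%, the TATA box in 10.7%, the C/EBP core in 9.05%, AP-1 in 6.57%, the E-box in 6.34% and the full response element in 1.65%. These shares are per window, whereas the counts of the 9 genes are per gene, so they are not directly comparable. Genes with more than 1 window had more chances to match. The matches describe the letters of the windows and no binding was measured.

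PTGS2 lies on chromosome 1 from 186640923 to 186650054 on the minus strand (GRCh37, the build of the counts), and PLA2G4A lies 148.0 kb from it, from 186798081 to 186958113 on the plus strand. PTGS1 (125132809 to 125157982), PTGES (132500610 to 132515321) and PTGES2 (130882972 to 130890741) are all on chromosome 9. PTGES3 is on chromosome 12 (57057125 to 57082192), HPGD on chromosome 4 (175411326 to 175444305), PTGER2 on chromosome 14 (52781023 to 52795316) and PTGER4 on chromosome 5 (40680017 to 40693837). The whole of PTGER4 lies inside the span of TTC33 on the opposite strand, 538 bases of HPGD overlap an antisense RNA gene, and 322 bases of PTGS2 overlap the antisense RNA gene PACERR. On the same strand, 221 bases of PTGS1 overlap a long noncoding RNA gene and 295 bases of PTGES3 overlap RN7SL809P. Whether strand was used in counting is not given in the sources used here, and reads in these overlaps cannot be assigned with certainty. A pseudogene row, PTGES3P1, carried 42 to 112 counts, at most 0.943% of the PTGES3 count of the same library.

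Per length, PTGES3 was by far the most abundant of the 9 transcripts. Its level in untreated cells was 79.4 ± 11.4 RPKM (reads scaled to gene length and library total; SD, n = 3) in the first series, against 92.0 ± 5.01 RPKM in untreated cells of the second. PTGES3 encodes p23, a small co-chaperone of HSP90 that also has cytosolic PGE2 synthase activity. PTGES2, a membrane-associated synthase, followed at 6.02 ± 0.302 and 5.90 ± 0.118 RPKM. PTGES, the inducible microsomal synthase that is coupled to PTGS2 in many cells, was at only 0.143 ± 0.117 and 0.425 ± 0.0628 RPKM. PTGS1 and the receptor PTGER2 came next to PTGES2, at 1.5 ± 0.194 and 1.76 ± 0.190 RPKM in the first series. They were at 1.26 ± 0.185 and 1.09 ± 0.137 RPKM in untreated cells of the second, and their ranges over libraries overlapped. PTGER4 was at 0.703 ± 0.0722 and 0.522 ± 0.0535 RPKM. The low end of the order held PLA2G4A (0.220 ± 0.118 and 0.294 ± 0.0533), PTGS2 (0.0533 ± 0.00997 and 0.232 ± 0.0698) and HPGD (0.0485 ± 0.0267 and 0.0488 ± 0.0249). In untreated cells of the first series PLA2G4A overlapped PTGES, PTGES overlapped PTGS2 and PTGS2 overlapped HPGD, whereas in the second PTGES overlapped PLA2G4A, PLA2G4A overlapped PTGS2, and HPGD lay below all 3. Series were not tested against each other. These levels used library totals without further scaling and the union of annotated exons.

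**Figure D1:**
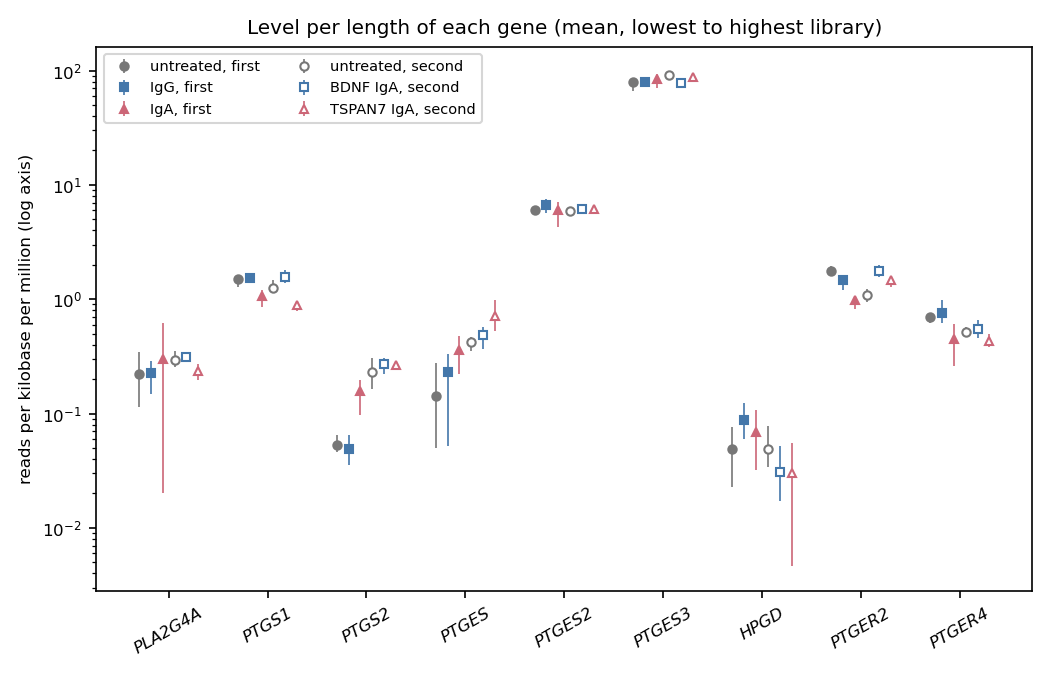
Level of each gene per length, in RPKM (reads scaled to gene length and library total) on a log axis, with a marker at the mean of 3 libraries and a line from the lowest to the highest library in each of the 6 groups. PTGES3 sits near 79.4 to 92.0 RPKM in untreated cells, far above PTGES2, and PTGS2 and HPGD lie lowest in the first series.

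In the first series the largest log2 fold change among the 9 genes with IgA was that of PTGS2, the inducible cyclooxygenase. Its normalised counts (raw counts brought to 1 common effective library size within the series) were 37, 38.0 and 23.7 in IgA replicates 1 to 3. They were 8.40, 11.8 and 6.59 in IgG replicates 1 to 3 and 8.31, 9.25 and 12.1 in untreated replicates 1 to 3. Every IgA library was above every IgG and untreated library, and the lowest of the IgA libraries was replicate 3, the library rich in mitochondrial counts. PTGS2 was 3.64-fold higher with IgA than with IgG, a log2 fold change of 1.86 (SE 0.52, 95% interval 0.74 to 2.99, adjusted p = 0.0207; edgeR quasi-likelihood test, two-sided, adjusted by Benjamini-Hochberg over the 18012 genes tested). Against untreated cells it was 3.31-fold higher, a log2 fold change of 1.72 (SE 0.51, 95% interval 0.62 to 2.83, adjusted p = 0.0268). Both comparisons use the same IgA libraries.

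The PTGS2 calls rested on few reads, 6 to 38 raw counts per library. Without IgA replicate 3 the log2 fold changes of PTGS2 were 2.04 against IgG (adjusted p = 0.0161) and 1.90 against untreated cells (adjusted p = 0.0204). Against IgG the adjusted p of PTGS2 rose to 0.0515 without IgA replicate 1 and to 0.0805, 0.0579 and 0.0902 without IgG replicates 1, 2 and 3. Against untreated cells it rose to 0.0642 and 0.0597 without IgA replicates 1 and 2, to 0.104, 0.0935 and 0.0735 without untreated replicates 1, 2 and 3, and to 0.0516 without IgG replicate 2. Over all settings tried the log2 fold change of PTGS2 stayed between 1.65 and 2.11 against IgG and between 1.54 and 1.90 against untreated cells. A looser filter, which kept every gene with at least 1 count, also ended both calls (adjusted p = 0.0543 and 0.0785), and scaling by library size alone ended the call against untreated cells (adjusted p = 0.0539).

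PTGS1, the constitutive cyclooxygenase, did not pass the test in any comparison of the first series. It had 247, 249 and 216 normalised counts with IgA, 284, 315 and 279 with IgG and 304, 252 and 325 in untreated cells. All IgA libraries were below all others, by a log2 difference of -0.30 (SE 0.16, 95% interval -0.65 to 0.05, adjusted p = 0.198) against IgG and of -0.30 (SE 0.16, 95% interval -0.66 to 0.05, adjusted p = 0.190) against untreated cells.

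**Figure D2:**
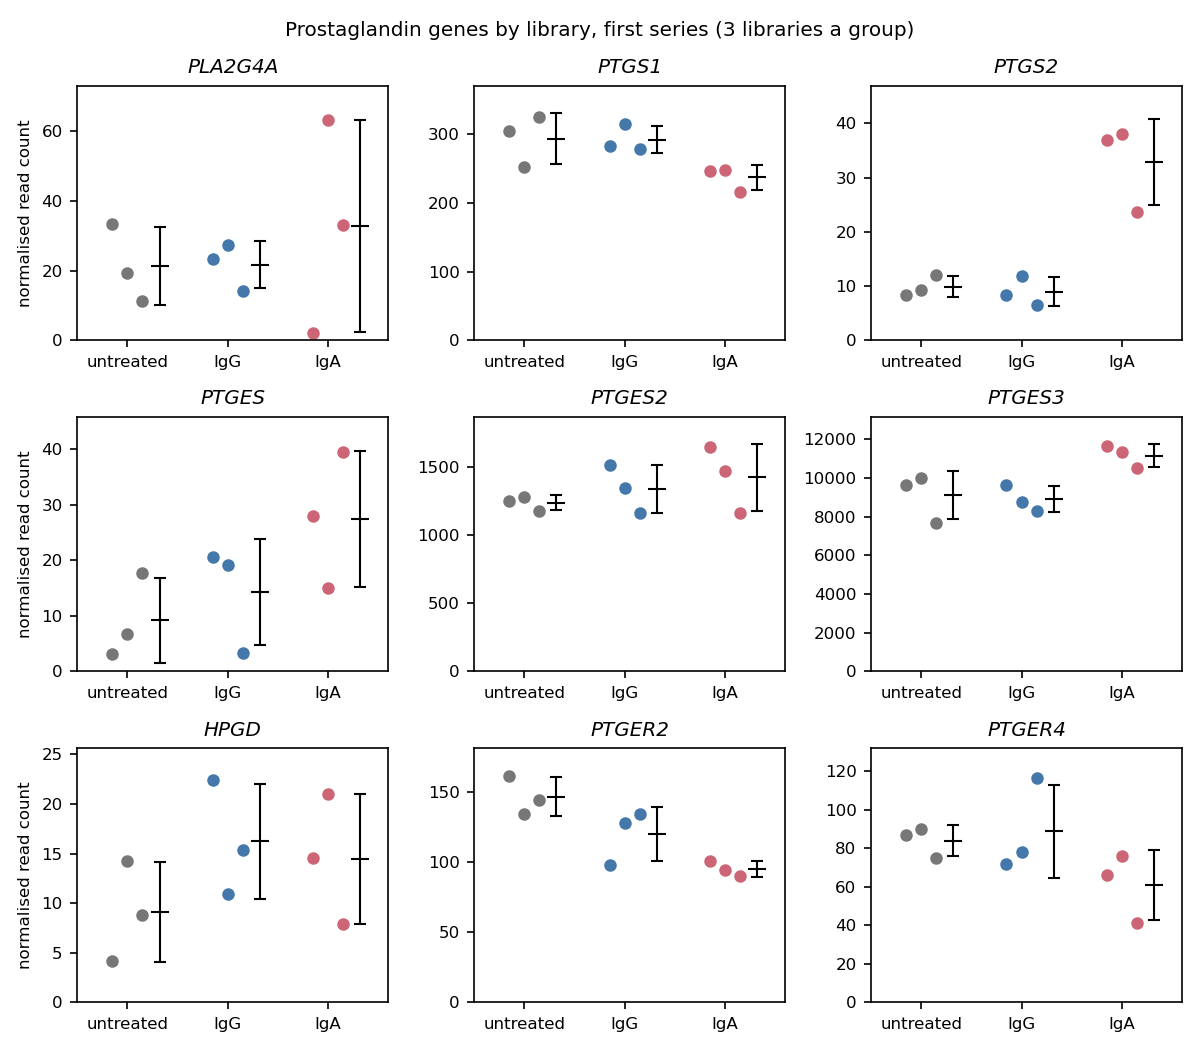
Normalised read counts of the 9 genes in each library of the first series, with points for replicates 1 to 3 from left to right and the mean and SD beside them, on axes that start at 0. The PTGS2 points with IgA lie between 23.7 and 38.0, above all IgG and untreated points, which lie between 6.59 and 12.1.

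Among the PGE2 synthases, PTGES3 was higher with IgA than with IgG. Its normalised counts were 11651, 11328 and 10502 with IgA, 9617, 8774 and 8283 with IgG and 9630, 9984 and 7686 in untreated cells. IgA libraries were again above all others, by a log2 fold change of 0.33 (SE 0.11, 95% interval 0.09 to 0.57, adjusted p = 0.0483) against IgG and of 0.29 (SE 0.11, 95% interval 0.05 to 0.54, adjusted p = 0.0710) against untreated cells, which was not called. The PTGES3 call against IgG sat at the threshold. Its adjusted p was 0.0293 without IgA replicate 3, but 0.112 and 0.0825 without IgA replicates 1 and 2, 0.0609, 0.146 and 0.170 without IgG replicates 1, 2 and 3, and 0.0764 and 0.0646 without untreated replicates 1 and 2. Against untreated cells PTGES3 passed without IgA replicate 3 (log2 fold change 0.34, adjusted p = 0.0425). When libraries were scaled by size alone, the median over all genes shifted on the log2 scale by -0.23 for IgA against IgG and by -0.21 for IgA against untreated cells. This lowered the PTGES3 value against IgG to 0.10 (adjusted p = 0.666), so the PTGES3 difference is relative to the composition-based scaling used.

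PTGES and PTGES2 did not pass the test. PTGES had 28.0, 15 and 39.5 normalised counts with IgA, 20.5, 19.1 and 3.29 with IgG and 3.11, 6.73 and 17.7 in untreated cells. The groups overlapped, and the interval of the log2 difference for IgA against untreated cells ran from -0.09 to 3.14 (adjusted p = 0.156). PTGES2 had 1644, 1465 and 1158 with IgA, 1510, 1346 and 1158 with IgG and 1251, 1280 and 1178 in untreated cells. Its log2 differences were 0.09 (95% interval -0.21 to 0.39) for IgA against IgG and 0.20 (95% interval -0.09 to 0.50) for IgA against untreated cells.

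At the start of the pathway, PLA2G4A, the phospholipase that frees arachidonic acid, varied widely among the IgA libraries. It had 2.24, 63.0 and 33.2 normalised counts with IgA, 23.3, 27.3 and 14.3 with IgG and 33.2, 19.3 and 11.3 in untreated cells. IgA replicates 1 and 2 spanned the whole range of the series, with raw counts of 2 and 63. The log2 difference for IgA against IgG had an interval from -1.05 to 2.25 and turned from 0.60 to -0.36 without IgA replicate 2. At the end of the pathway, HPGD, the dehydrogenase that inactivates PGE2, had 14.6, 21.0 and 7.90 with IgA, 22.4, 10.9 and 15.4 with IgG and 4.15, 14.3 and 8.86 in untreated cells. HPGD groups overlapped in every comparison, and with 4 to 24 raw counts per library only large changes of this gene were detectable.

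Both cyclic AMP-raising receptors had lower means with IgA, without passing the test. PTGER2 had 101, 93.9 and 90.0 normalised counts with IgA, 98.0, 127 and 134 with IgG and 161, 134 and 144 in untreated cells. IgA libraries were below every untreated library, and the log2 difference of -0.62 (SE 0.22, 95% interval -1.08 to -0.16) missed the threshold with an adjusted p of 0.0507. PTGER2 passed under 3 other settings, with a log2 difference of -0.83 and an adjusted p of 0.0201 when libraries were scaled by size alone, 0.0496 with relative log expression factors and 0.0460 with a filter of at least 50 counts in 3 libraries. Without IgA replicate 3 the difference was -0.59 (adjusted p = 0.0704). Against IgG the PTGER2 groups overlapped (log2 difference -0.33, 95% interval -0.80 to 0.14, adjusted p = 0.286). PTGER4 had 66.2, 75.9 and 41.1 with IgA, 71.9, 78.3 and 116 with IgG and 87.2, 90.0 and 74.9 in untreated cells, and its groups overlapped too, with log2 differences of -0.52 (95% interval -1.17 to 0.13) against IgG and -0.44 (95% interval -1.10 to 0.21) against untreated cells.

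In all, 2 of 9 genes were called for IgA against IgG, both higher, where 24.2% of all genes tested were called. For IgA against untreated cells 1 of 9 was called, where 25% of all genes were. These shares are no higher than the background. The median log2 fold change of the 9 genes was 0.09 and 0.29 in these comparisons, against -0.01 for all genes tested in each. For IgG against untreated cells 0 of 9 were called by edgeR and 0 by DESeq2, 0 had an unadjusted p under 0.05, and 0% of all genes were called. Among all 18012 genes tested, 89 had an unadjusted p under 0.05 there. Each gene's spread was estimated over all 9 libraries, the IgA ones included. These counts therefore cannot show that IgG had no effect. The 95% interval of the PTGS2 difference in that comparison ran from -1.30 to 1.02 on the log2 scale, and for PTGES3 it ran from -0.27 to 0.21.

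In the second series PTGS1, PTGES3 and PTGER2 passed the test in at least 1 comparison. PTGS1 had 370, 340 and 436 normalised counts with BDNF IgA, 231, 196 and 230 with TSPAN7 IgA and 290, 277 and 364 in untreated cells. TSPAN7 IgA libraries lay below all others, and BDNF IgA libraries overlapped the untreated ones. Between the antibodies, PTGS1 was 1.75-fold lower with TSPAN7 IgA, a log2 difference of -0.80 (SE 0.12, 95% interval -1.06 to -0.55, adjusted p = 0.000348; 18732 genes tested). It was called under all 18 other settings of this comparison, with log2 differences from -0.88 to -0.70. Against untreated cells PTGS1 was 1.42-fold lower with TSPAN7 IgA (log2 difference -0.51, SE 0.12, 95% interval -0.77 to -0.25, adjusted p = 0.0128). That call was lost without TSPAN7 IgA replicate 2 (-0.43, adjusted p = 0.0893) and without untreated replicate 3 (-0.37, adjusted p = 0.105). With BDNF IgA the PTGS1 difference from untreated cells was 0.30 (SE 0.12, 95% interval 0.05 to 0.54, adjusted p = 0.133), and it passed without BDNF IgA replicate 2 (0.37, adjusted p = 0.0334) or untreated replicate 3 (0.43, adjusted p = 0.0471).

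PTGS2 showed no difference past the test in the second series. Its normalised counts were 66.7, 50.9 and 71.3 with BDNF IgA, 65.9, 64.3 and 57.4 with TSPAN7 IgA and 38.5, 52.6 and 71.3 in untreated cells. The untreated libraries spanned the range of both treated groups. The log2 difference was 0.21 (95% interval -0.27 to 0.69, adjusted p = 0.658) with BDNF IgA and 0.20 (95% interval -0.29 to 0.69, adjusted p = 0.679) with TSPAN7 IgA. Between the antibodies it was -0.01 (95% interval -0.49 to 0.47). Differences between the series were not tested.

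**Figure D3:**
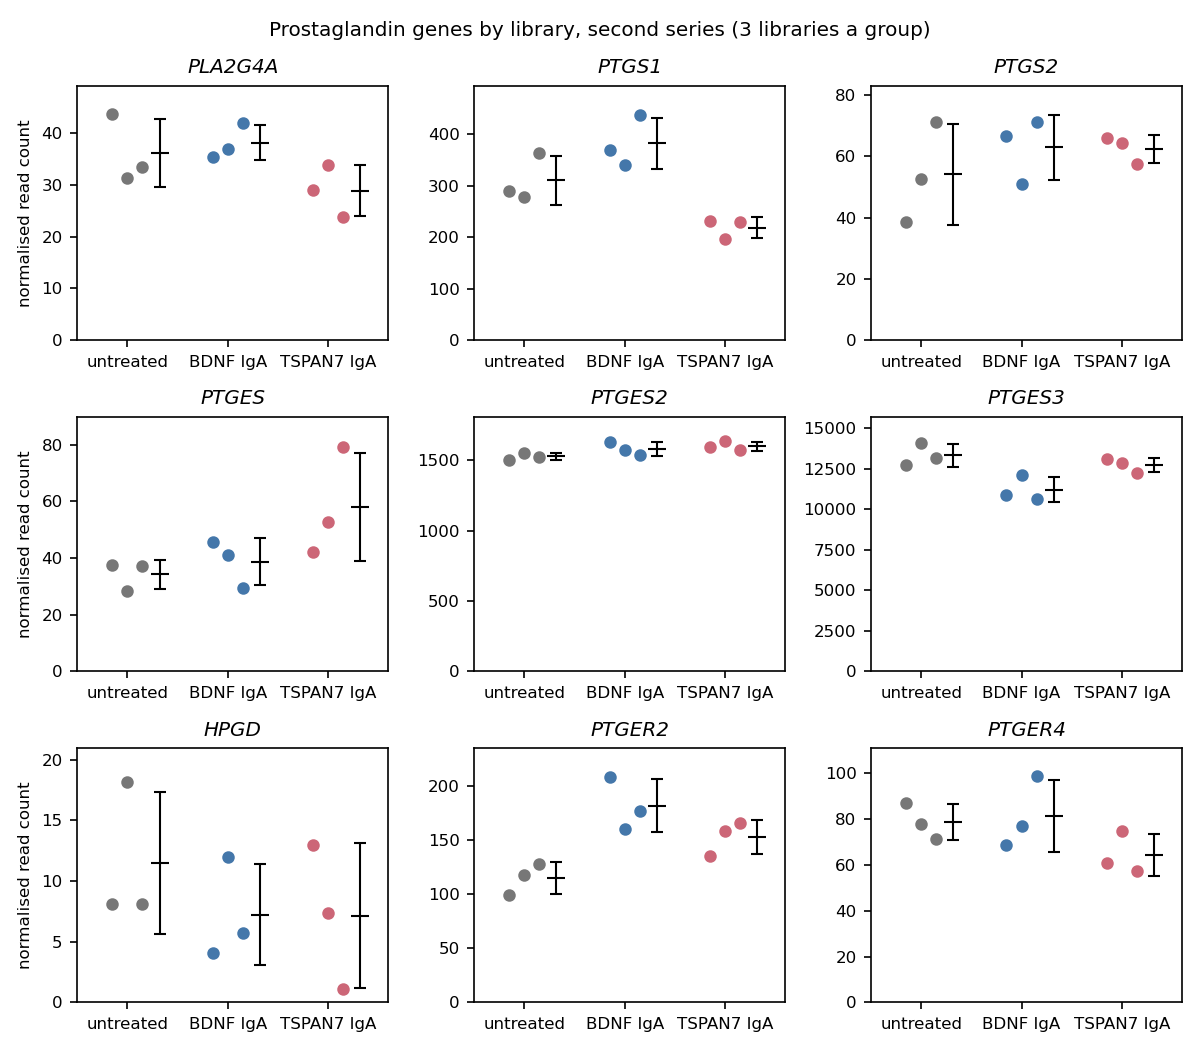
Normalised read counts of the 9 genes in each library of the second series, drawn as for the first series with replicates 1 to 3 from left to right and the mean and SD beside them. PTGS1 with TSPAN7 IgA lies between 196 and 231, below all other libraries, PTGER2 with BDNF IgA lies between 160 and 208, above all untreated libraries, and the PTGS2 groups overlap.

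PTGES3 was lower with BDNF IgA. It had 10906, 12091 and 10644 normalised counts with BDNF IgA, 13078, 12866 and 12265 with TSPAN7 IgA and 12746, 14087 and 13145 in untreated cells, so that every BDNF IgA library was below all others. The log2 difference between BDNF IgA and untreated cells was -0.25 (SE 0.051, 95% interval -0.35 to -0.14, adjusted p = 0.00355), and it was called under all 18 other settings of that comparison. Between TSPAN7 IgA and BDNF IgA it was 0.18 (SE 0.051, 95% interval 0.08 to 0.29, adjusted p = 0.0292). The PTGES3 call between these antibodies was lost without BDNF IgA replicates 1 and 3 (adjusted p = 0.134 and 0.161) and without TSPAN7 IgA replicates 1 and 2 (adjusted p = 0.0921 and 0.129). TSPAN7 IgA and untreated libraries overlapped (log2 difference -0.07, 95% interval -0.17 to 0.04).

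The inducible synthase PTGES had 45.5, 41.0 and 29.5 normalised counts with BDNF IgA, 41.9, 52.7 and 79.0 with TSPAN7 IgA and 37.5, 28.3 and 37 in untreated cells. All TSPAN7 IgA libraries were above the untreated ones, replicate 3 most, but the log2 difference of 0.75 (SE 0.27, 95% interval 0.18 to 1.31) was not called (adjusted p = 0.0995). PTGES2 had 1633, 1572 and 1540 with BDNF IgA, 1593, 1638 and 1576 with TSPAN7 IgA and 1503, 1557 and 1525 in untreated cells. Its TSPAN7 IgA libraries all lay above the untreated ones by a small margin, with 95% intervals of -0.06 to 0.16 and -0.04 to 0.18 on the log2 scale for BDNF IgA and TSPAN7 IgA against untreated cells (adjusted p = 0.638 and 0.484).

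PTGER2 was higher with BDNF IgA than in untreated cells. It had 208, 160 and 177 normalised counts with BDNF IgA, 135, 158 and 166 with TSPAN7 IgA and 99.3, 117 and 128 in untreated cells. Libraries of both IgA lay above all untreated libraries. The difference was 1.58-fold with BDNF IgA (log2 fold change 0.66, SE 0.15, 95% interval 0.35 to 0.96, adjusted p = 0.00781) and 0.41 on the log2 scale with TSPAN7 IgA (SE 0.15, 95% interval 0.09 to 0.72, adjusted p = 0.107), which was not called. Between TSPAN7 IgA and BDNF IgA the log2 difference of PTGER2 was -0.25 (95% interval -0.55 to 0.05, adjusted p = 0.329). The call with BDNF IgA was lost without BDNF IgA replicate 1 (0.55, adjusted p = 0.0585) and without untreated replicate 1 (0.56, adjusted p = 0.0514). PTGER4 had 68.7, 76.9 and 98.8 with BDNF IgA, 60.9, 74.8 and 57.4 with TSPAN7 IgA and 87.1, 77.9 and 71.3 in untreated cells, and its groups overlapped in each comparison.

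PLA2G4A had 35.4, 37 and 41.8 normalised counts with BDNF IgA, 29.0, 33.7 and 23.8 with TSPAN7 IgA and 43.6, 31.4 and 33.4 in untreated cells. TSPAN7 IgA replicate 3 was the lowest library and untreated replicate 1 the highest. TSPAN7 IgA libraries were below those with BDNF IgA, without passing the test (log2 difference -0.40, 95% interval -0.97 to 0.17, adjusted p = 0.424). HPGD had 4.04, 12 and 5.70 with BDNF IgA, 13.0, 7.38 and 1.08 with TSPAN7 IgA and 8.10, 18.2 and 8.13 in untreated cells, and its groups overlapped.

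For BDNF IgA against untreated cells 2 of 9 genes were called, 1 higher and 1 lower, where 7.67% of all genes tested were. For TSPAN7 IgA against untreated cells 1 of 9 was called, where 8.54% of all genes were, and for TSPAN7 IgA against BDNF IgA 2 of 9, where 7.92% were. The first 2 comparisons share their untreated libraries. No test was made on these shares, which rest on 1 or 2 calls each.

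**Figure D4:**
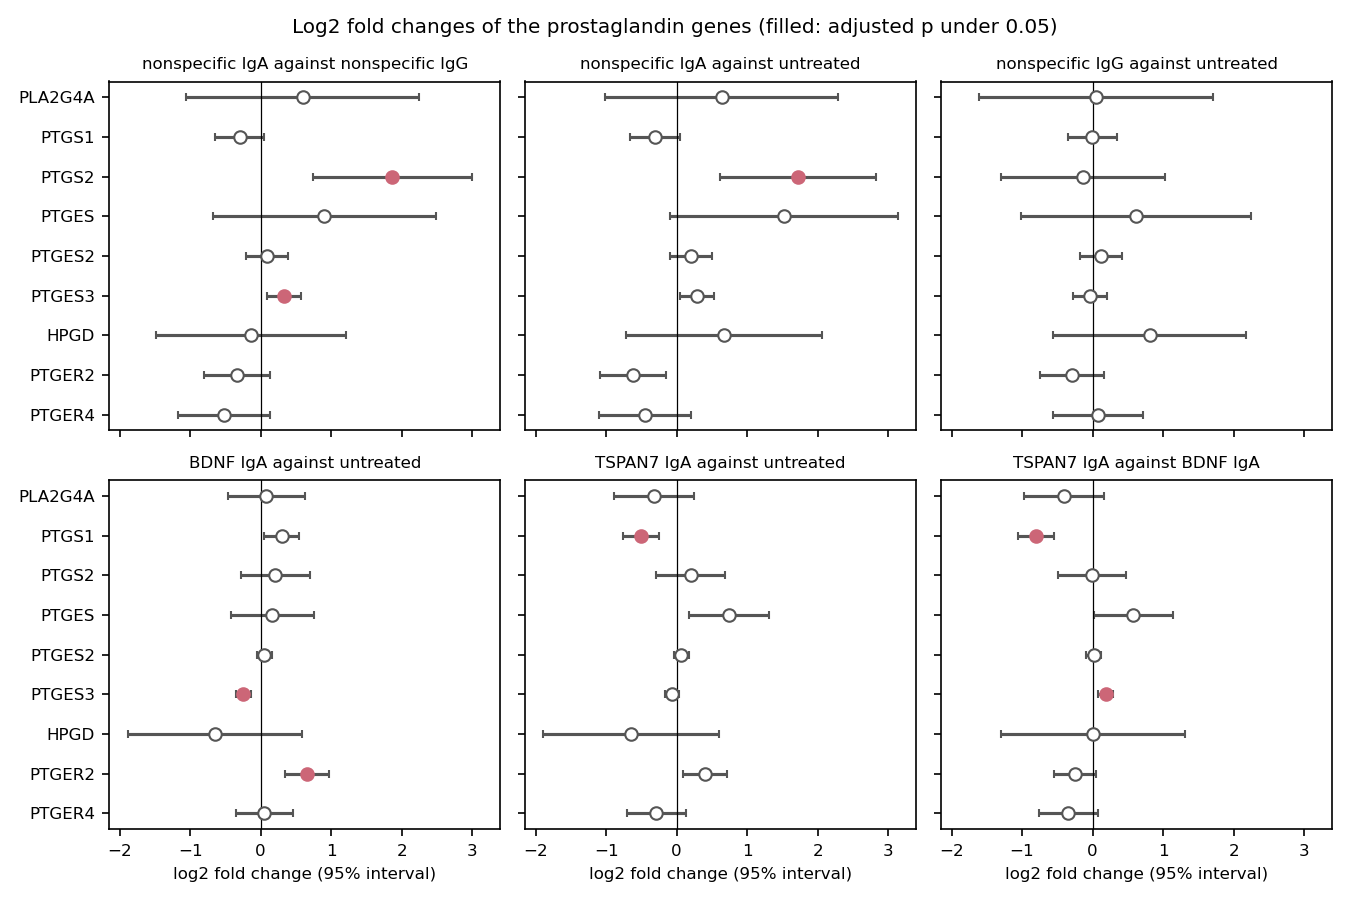
Log2 fold changes of the 9 genes in the 6 comparisons, first group over second, with 95% intervals. Filled points passed an adjusted p of 0.05: PTGS2 and PTGES3 for IgA against IgG, PTGS2 for IgA against untreated cells, PTGES3 and PTGER2 for BDNF IgA, PTGS1 for TSPAN7 IgA, and PTGS1 and PTGES3 between the antigen-directed IgA.

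Around these genes, 43 further genes of arachidonic acid and eicosanoid handling were listed, of which the filter kept 29 for the first series, 28 for the second. For IgA against IgG 6 of 29 were higher and 0 lower, beside 24.2% of all genes called. MGLL, a lipase that releases arachidonic acid from an endocannabinoid, rose from 1022 ± 148 to 3118 ± 1070 normalised counts (SD, n = 3; log2 fold change 1.61, SE 0.20, adjusted p = 0.000159). The highest IgA library for MGLL was replicate 3, at 4335 normalised counts. Over the 18 other settings, among them leaving out that replicate, MGLL stayed called with log2 fold changes of 1.29 to 1.78. ACSL4, which activates arachidonic acid for return to membranes, rose by a log2 fold change of 0.90 and ANXA1, a protein known as an inhibitor of phospholipases, by 0.67. AKR1C3, a prostaglandin F synthase, rose by 1.13, CBR1, a carbonyl reductase that acts on PGE2, by 0.54, and PLA2G4C, a relative of PLA2G4A with 3 to 35 raw counts, by 2.55. Against untreated cells 7 of 29 were higher and 0 lower, beside 25% of all genes called. They were the same 6 and SLCO2A1, a prostaglandin importer, by a log2 fold change of 1.18 (SE 0.36, adjusted p = 0.0306). In both comparisons the share called was no higher than the background.

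The median log2 fold change of the 29 genes was -0.01 against IgG and 0.04 against untreated cells, with -0.01 for all genes. Without IgA replicate 2 the counts were 7 higher and 4 lower against IgG, and 7 higher and 5 lower against untreated cells. Without IgA replicate 3 they were 6 higher and 2 lower in both. With libraries scaled by size alone, 5 were higher against IgG with 1 lower, and 4 against untreated cells with 1 lower. CBR1 was called in 11 of the 18 other settings against IgG and PLA2G4C in 5 of 17 against untreated cells. None of the 29 genes passed for IgG against untreated cells by edgeR or DESeq2. Of the 29, 0 had an unadjusted p under 0.05, beside 89 of all 18012 genes tested.

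In the second series 3 of the 28 genes passed with each antibody against untreated cells and 5 between the antibodies. ALOX5, which starts leukotriene synthesis, rose with BDNF IgA from 579 ± 32.6 to 846 ± 93.3 normalised counts (log2 fold change 0.55, SE 0.090, adjusted p = 0.000525). ACSL4 was higher by 0.26 and AKR1C3 lower, at -0.26, in that comparison, which makes 2 of 28 higher and 1 lower beside a background of 7.67%. With TSPAN7 IgA, MGLL (0.32) and ANXA1 (0.19) were higher and PTGR1, a prostaglandin reductase, was lower (-0.20), beside 8.54%. Between TSPAN7 IgA and BDNF IgA, MGLL (0.28) and AKR1C3 (0.22) were higher and ALOX5 (-0.35), PTGR1 (-0.27) and ACSL4 (-0.21) lower, beside 7.92%. Without BDNF IgA replicate 2 the total of called genes rose from 3 to 5 in each comparison with untreated cells and from 5 to 9 between the antibodies. With TSPAN7 IgA against untreated cells 1 gene was left without TSPAN7 IgA replicate 3, untreated replicate 1 or untreated replicate 2. Between the antibodies 2, 1, 3 and 2 were left without BDNF IgA replicates 1 and 3 and TSPAN7 IgA replicates 1 and 2, in that order.

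**Figure D5:**
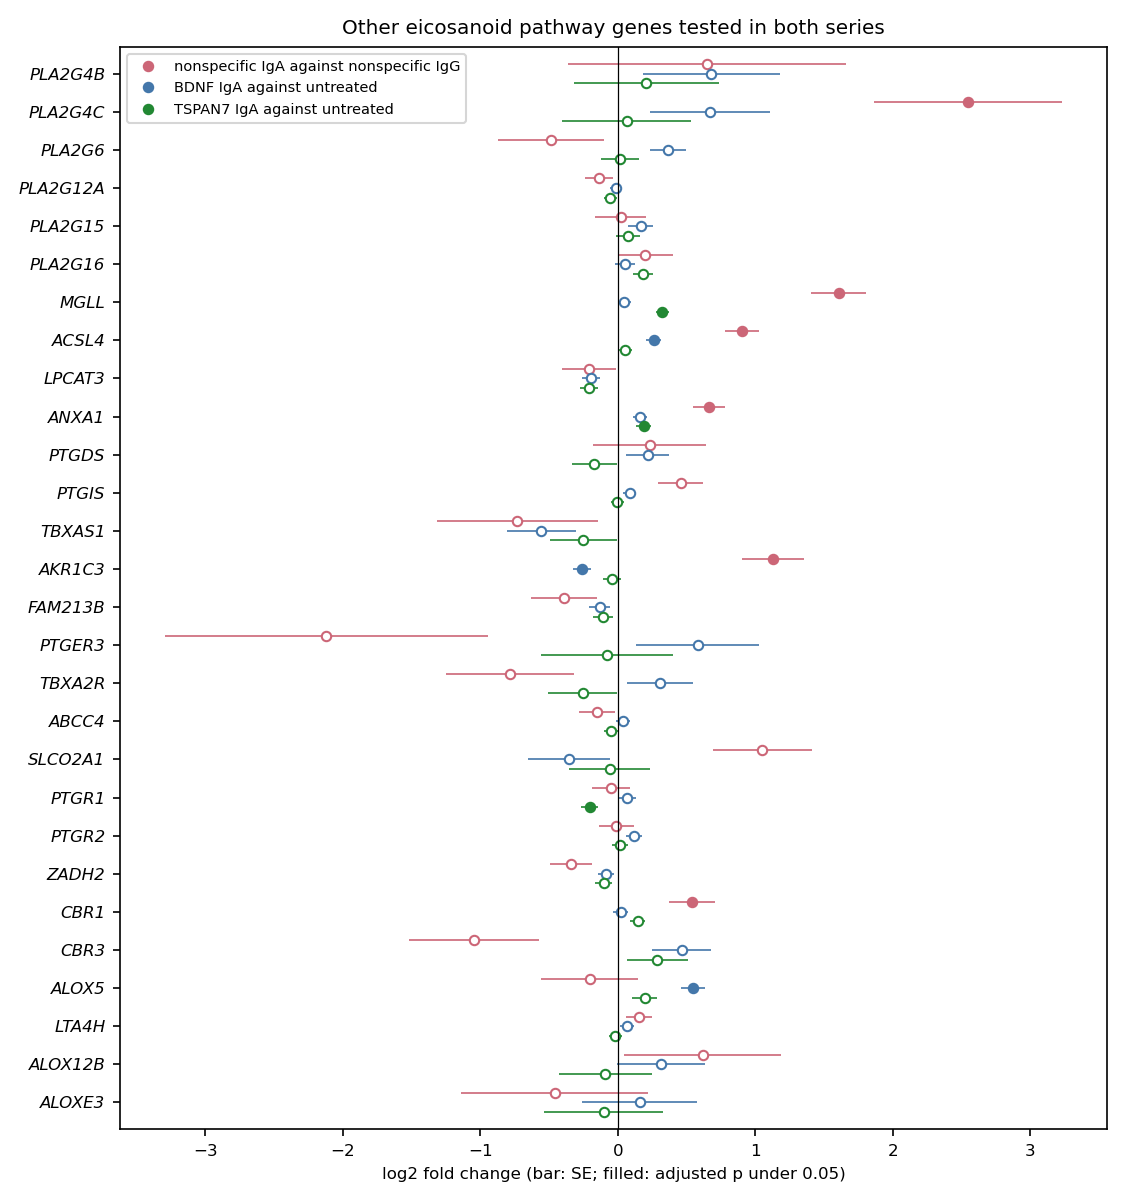
Log2 fold changes (bars, SE) of 28 further eicosanoid pathway genes tested in both series, for IgA against IgG and for each antigen-directed IgA against untreated cells, with filled points at an adjusted p under 0.05. MGLL, ACSL4, ANXA1, AKR1C3, CBR1 and PLA2G4C are called higher for IgA against IgG, and ALOX5, ACSL4 and AKR1C3 are called with BDNF IgA.

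The other prostanoid receptors were scarce. PTGER1, PTGDR, PTGDR2, PTGFR and PTGIR had between 0 and 12 raw counts in any library and were not tested, PTGER3 had 0 to 24, and TBXA2R, the thromboxane receptor, had 12 to 74. Prostacyclin synthase, PTGIS, was by contrast well covered, at 2124 to 3417 raw counts per library (first series) and 7844 to 10035 (second), and was called in no comparison by edgeR. All IgA libraries of PTGIS were above the others of its series, with log2 differences of 0.46 against IgG (adjusted p = 0.0565 by edgeR and 0.0345 by DESeq2) and 0.45 against untreated cells (adjusted p = 0.0605 by edgeR and 0.0414 by DESeq2). These 8 genes were singled out after their values were seen.

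Of 11 genes known to act on PTGS2 transcription or mRNA stability, 5 were higher and 1 lower with IgA than with IgG, beside the background of 24.2%. The list was chosen with earlier results of these data known, so its shares beside the background are a description only. The transcription factor genes CEBPD and NFKB1 rose by log2 fold changes of 1.72 (SE 0.23, adjusted p = 0.000285) and 1.11 (SE 0.11, adjusted p = 3.8e-05). ZFP36L1, ZFP36 and ZFP36L2, whose products speed the decay of mRNAs with AU-rich elements, rose by 1.89, 0.64 and 0.44, and TIA1, a translational silencer, was lower (-0.40). ZFP36L2 was called in 9 of the 18 other settings and TIA1 in 14. Against untreated cells 4 of the 11 were higher and TIA1 lower, beside 25%. In the second series ZFP36, ZFP36L1 and ZFP36L2 were higher with BDNF IgA (log2 fold changes of 0.18, 0.19 and 0.20) and with TSPAN7 IgA (0.19, 0.26 and 0.16). CEBPD was lower with BDNF IgA (-0.22) and higher with TSPAN7 IgA than with BDNF IgA (0.33), CEBPB was lower there (-0.22), KHSRP, a decay factor, was lower with BDNF IgA (-0.14), and PTGS2 passed in none of these comparisons. Of the 11 genes, 3 were thus higher and 2 lower with BDNF IgA, beside 7.67% of all genes called. With TSPAN7 IgA 3 were higher, beside 8.54%, and between the antibodies 1 was higher and 1 lower, beside 7.92%. The 5 calls with BDNF IgA became 2 without BDNF IgA replicate 1 or untreated replicate 1 and 3 without BDNF IgA replicate 3 or untreated replicates 2 or 3. The 2 calls between the antibodies became 4 without BDNF IgA replicate 2 and 1 without BDNF IgA replicate 3 or TSPAN7 IgA replicate 2.

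A list of 9 genes that respond to cyclic AMP, the second messenger raised by the receptors of PTGER2 and PTGER4, was also compared. Like the other gene lists, it was chosen with earlier results of these data known. Its shares and median beside those of all genes are therefore a description only, and a cyclic AMP response was not tested. With IgA against IgG 6 of the 9 were higher and 0 lower, beside 24.2%, with a median log2 fold change of 1.16 over the list and -0.01 over all genes. PER1 rose from 339 ± 27.8 to 2014 ± 706 normalised counts (log2 fold change 2.57, SE 0.21, adjusted p = 8.74e-06), PDE4B by 2.14, SIK1 by 1.92, NR4A1 by 1.87, PDE4D by 1.16 and CREM by 0.47. The highest IgA library for PER1 was replicate 3, at 2750 normalised counts. CREM was called in 10 of the 18 other settings, whereas PER1, PDE4B, SIK1, NR4A1 and PDE4D were called in all 18. NR4A2 (0.51, adjusted p = 0.0618) and NR4A3 (0.77, adjusted p = 0.359) did not pass. FOS had the opposite sign, with log2 differences of -1.39 against IgG (adjusted p = 0.0961, groups overlapping) and -1.5 against untreated cells (adjusted p = 0.0731, all IgA libraries below), and was not called. Many of these genes also answer to other signals. With TSPAN7 IgA against untreated cells NR4A1 (0.78), FOS (0.42) and SIK1 (0.30) were higher, beside 8.54%, and 2 of the 3 were left without TSPAN7 IgA replicate 2, untreated replicate 1 or untreated replicate 3. With BDNF IgA, in which PTGER2 was higher, FOS alone of the 9 was called (0.25), beside 7.67%. The count with BDNF IgA was 2 without BDNF IgA replicates 2 or 3 or untreated replicate 2. Between the antibodies SIK1 (0.26) and FOS (0.17) were higher with TSPAN7 IgA, beside 7.92%, but 0 were left without BDNF IgA replicates 1 or 3, TSPAN7 IgA replicate 1 or untreated replicate 1, 1 was left without TSPAN7 IgA replicate 2 or untreated replicate 2, and 4 passed without BDNF IgA replicate 2.

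HSP90 genes and their other co-chaperones were compared with PTGES3, which belongs to the same machinery. This list too was chosen with earlier results of these data known, so its shares are a description only. Against IgG, HSP90AB1 (0.65), HSP90AA1 (0.59), CDC37 (0.46) and FKBP4 (0.36) were higher with IgA, 4 of 9 beside 24.2%. The count was 0 of 9 with library size scaling, 6 without IgA replicate 3, 2 without IgA replicate 1, IgG replicate 2 or untreated replicates 1 or 2, and 1 without IgG replicate 3. Against untreated cells HSP90AB1 (0.72), HSP90AA1 (0.60) and FKBP4 (0.45) were higher, 3 of 9 beside 25%, with 1 left under library size scaling or without untreated replicate 3 and 5 without IgA replicate 3. With BDNF IgA, HSP90AA1 (-0.22) and SUGT1 (-0.27) were lower, as PTGES3 was, 2 of 9 beside 7.67%. That count was 4 without BDNF IgA replicate 2 and 1 without BDNF IgA replicate 3, untreated replicate 1 or untreated replicate 2. Between TSPAN7 IgA and BDNF IgA, HSP90AA1 (0.22), SUGT1 (0.20) and HSP90AB1 (0.16) were higher, 3 of 9 beside 7.92%. It was 0 without BDNF IgA replicate 3 or TSPAN7 IgA replicates 2 or 3, 1 without BDNF IgA replicate 1, and 5 without BDNF IgA replicate 2. With TSPAN7 IgA against untreated cells none of the 9 was called by edgeR or DESeq2, beside 8.54% of all genes called by edgeR. Of the 9, 0 had an unadjusted p under 0.05, beside 4138 of all 18732 genes tested.

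Over the 9 libraries of the first series, the genes most like PTGS2 in normalised log expression were TRAF3IP2 (Pearson r = 0.99), CAMTA1 (0.98), TGIF1 (0.98), ITGA2 (0.98) and BCAR3 (0.98). In the second series they were ETNK1 (0.96), LST1 (0.95), EAF1 (0.93), MMD (0.91) and SLC37A3 (0.91). The 5 names differed entirely between the series. With so few names taken from 18012 and 18732 tested genes, an overlap would be rare in any case. PTGS2 was also called in no comparison of the second series, so no conclusion is drawn from this difference. The libraries share treatments and depth, so these values describe likeness of pattern only.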

How the data were processed

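OVCAR3 RNA was sequenced in 18 libraries, grouped by sample title. After bcl2fastq 2.20.0.422, the authors removed adaptors with cutadapt 1.8.1 and used STAR to align reads to GRCh37 (hg19 in the submitters' processing notes). The study's methods name featureCounts with a GENCODE annotation for counting and the processing notes name HTSeq 0.6.1, a conflict not settled here. The authors deposited raw read counts per gene without normalization. Use of strand was not given in the sources used here. In the second file, 2055 exact duplicate rows were left out. The 9 genes and all gene lists were chosen with earlier results of these data known.

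Each series was fitted once with its 9 libraries in R 4.3.3 with edgeR 4.0.16, using filterByExpr, TMM factors and the two-sided quasi-likelihood test. P-values were adjusted by Benjamini-Hochberg over all genes, and genes were called under 0.05. The SE of a log2 fold change was its size over the root of the F statistic. All 9 genes were to be named in every comparison, with up to 6 called genes per other list and the 5 genes most correlated with PTGS2. Replicates differed by more than sampling noise (chi-square per degree of freedom 3.91 to 232). Exon lengths came from a GENCODE release on GRCh37 that may differ from the annotation counted, and promoter sequences from RefSeq on GRCh38.p14, where all 9 genes matched. Scripts were tested on simulated data. Alternatives were DESeq2 1.42.0, other scalings and filters, a replicate block and leaving out each library. Their use on the other gene lists was added after seeing the data. Since no molecular identifiers were used, reads are not independent molecules and errors rest on library spread.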

Additional observations from a re-analysis of the deposited data

How the results depend on the processing

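Of 947 recomputed log2 fold changes of the 9 genes, 869 kept their direction and their side of the threshold, 32 lost a call, 7 gained one and 39 changed sign, none of which was called. Of 75 calls in the other lists, 39 held under every alternative, 36 were lost under some, and none changed sign. Few reads limit PTGS2, PTGES, PLA2G4A and HPGD. The causes of the changes were not tested.

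For IgA against IgG, 2 of the 9 genes were called. This became 1 with library size scaling, with at least 50 counts in 3 libraries (where PTGS2 was not tested) and with only the 6 libraries compared, and 0 with at least 1 count in any library or an adjusted p under 0.01. For IgA against untreated cells, 1 gene became 2 with RLE scaling and 0 with at least 1 count or under 0.01. Library size scaling gave PTGER2 in place of PTGS2. The other pathway genes fell from 7 to 4 under 0.01. For TSPAN7 IgA against untreated cells, 1 became 0 under 0.01, and 3 other pathway genes became 1 under 0.01 and 5 with only the 6 libraries compared. For TSPAN7 IgA against BDNF IgA, 2 became 1 and 5 other pathway genes became 2 under 0.01.

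Leaving out 1 replicate gave 0 to 2 of the 9 genes for IgA against IgG, 0 to 2 for IgA against untreated cells, 1 to 3 for BDNF IgA, 0 to 1 for TSPAN7 IgA and 1 to 2 between them. Other pathway genes ranged from 4 to 11, 5 to 12, 2 to 5, 1 to 5 and 1 to 9 in the same order. For IgG against untreated cells both stayed at 0.

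Deviations of same-numbered replicates were at most weakly correlated between groups, with r of -0.07 to 0.25 (first series) or -0.02 to 0.09 (second). Differently numbered pairs had r of -0.21 to 0.14 (first series) or -0.08 to 0.05 (second). The highest r of each series belonged to a same-numbered pair, untreated with IgG replicate 3 and BDNF IgA with TSPAN7 IgA replicate 2. These values do not settle whether equal numbers mark paired libraries. With the replicate block PTGS2 against untreated cells had a log2 fold change of 1.69 (adjusted p = 0.0503) and PTGES3 passed there (0.30, adjusted p = 0.0353). No other call of the 9 genes changed with the block. Uncalled log2 fold changes that turned sign with it were those of PLA2G4A for IgG against untreated cells (-0.0087) and, for TSPAN7 IgA against BDNF IgA, of PTGS2 (0.0026) and HPGD (-0.012).

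Other sign changes were also in uncalled values. Library size scaling gave -0.13 for PTGES2 (IgA against IgG), 0.021 for PTGS1 (IgG against untreated) and -0.0091 for HPGD (TSPAN7 IgA against BDNF IgA), where DESeq2 gave -0.0068 and the loosest filter -0.00084. Leaving out 1 replicate gave, for IgA against IgG, -0.36 to 1.15 for PLA2G4A, -0.030 to 0.21 for PTGES2 and -0.51 to 0.16 for HPGD, and for IgA against untreated cells -0.32 to 1.20 for PLA2G4A. For IgG against untreated cells it gave -0.27 to 0.50 for PLA2G4A, -0.10 to 0.071 for PTGS1, -0.39 to 0.030 for PTGS2, -0.14 to 0.039 for PTGES3 and -0.16 to 0.21 for PTGER4. With BDNF IgA it gave -0.0093 to 0.23 for PLA2G4A and -0.11 to 0.16 for PTGER4, and between the antibodies -0.14 to 0.090 for PTGS2 and -0.74 to 0.56 for HPGD. Genes called numbered 4360, 4503, 1437, 1600 and 1484 for IgA against IgG, IgA against untreated cells, BDNF IgA, TSPAN7 IgA and between the last, with extremes over all settings of 2041 to 5286, 2130 to 5229, 638 to 2798, 757 to 2345 and 482 to 3276. The lowest came with an adjusted p under 0.01, except without TSPAN7 IgA replicate 2 (757) and BDNF IgA replicate 3 (482). The highest came without IgA replicate 2 or BDNF IgA replicate 2, except with only the 6 libraries compared (2345).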
